A study of Mus musculus with 6 samples.

Results

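The mouse mitochondrial chromosome carries 37 genes, and all 37 rows of the deposited gene table that lie on it were taken here, out of 55414 annotated genes. They are 13 mRNAs, 2 rRNAs and 22 tRNAs. The values come from RNA-seq of the livers of male mice, 12 weeks old and fasted for 16 hours, in 6 libraries of 3 groups. Control mice (labelled Gapfl, the floxed Gapdh genotype) drank plain water, as did one group of mice with a hepatocyte-specific Gapdh deletion (labelled GapAlb KO). The other GapAlb KO group drank water with 5% serine. Each group had 2 libraries, each made from pooled liver RNA of 2 mice, so p-values measure the spread between pools. All groups were fasted, and the 6 libraries include no controls given serine. An effect of serine particular to the knockouts therefore cannot be told apart from one in any mouse. The deletion is limited to hepatocytes, so Gapdh in other liver cells is intact by design, and the Cre line is not spelled out in the labels.

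The mitochondrial genome is read from both strands into long precursor RNAs. Most of its mRNAs and both rRNAs come from one strand, and tRNAs that lie between them are cut out to release the others. The mRNAs encode core subunits of the respiratory complexes I, III, IV and V, and the rRNAs build the mitochondrial ribosome. In liver these complexes consume the NADH made by fatty acid oxidation during fasting. All other respiratory subunits, and every protein that copies, cuts or stabilises mitochondrial RNA, are encoded in the nucleus.

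On the mitochondrial chromosome of GRCm39, 12 mRNAs, both rRNAs and 14 tRNAs lie on the plus strand, and mt-Nd6 and 8 tRNAs on the minus strand. The 2 longest overlaps between mRNAs are described here. Those of mt-Nd4l with mt-Nd4 (7 bases) and of mt-Atp6 with mt-Co3 (1 base) are shorter. The end of mt-Atp8 and the start of mt-Atp6 share 43 bases, printed in capitals below from the GENCODE vM21 transcripts (GRCm38), where all 37 genes have the same start, end and strand as in the deposited table. The ends of mt-Nd5 and mt-Nd6, on opposite strands, share 14 bases.
mt-Atp8: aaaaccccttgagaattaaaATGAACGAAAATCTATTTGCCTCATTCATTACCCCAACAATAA
mt-Atp6: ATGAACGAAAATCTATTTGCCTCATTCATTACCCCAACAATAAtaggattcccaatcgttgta

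A second kind of overlap is with the nucleus. A cluster of gene models on chromosome 1 (minus strand, GRCm39) copies a stretch of the mitochondrial genome, and the deposited table lists high FPKM under some of them. The pairs below are shown because their letters decide how far reads can be told apart. Gm28438 (24651856 to 24652200) matched mt-Nd3 over 345 bases with 1 difference, T3C counted from the first base of mt-Nd3. Gm29216 (24654787 to 24655278) matched the last part of mt-Co1 over 483 bases with 1 difference, A1066T counted from the first base of mt-Co1. The differing base is in capitals. Gm28661 (24653966 to 24654646) matched mt-Co2 over 681 bases with none, and the first 60 bases of both are shown without capitals.
mt-Nd3: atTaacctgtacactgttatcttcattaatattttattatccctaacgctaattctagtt
Gm28438: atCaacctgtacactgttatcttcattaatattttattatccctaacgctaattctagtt
mt-Co1: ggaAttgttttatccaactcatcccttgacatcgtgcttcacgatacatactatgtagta
Gm29216: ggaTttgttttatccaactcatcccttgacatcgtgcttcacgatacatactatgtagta
mt-Co2: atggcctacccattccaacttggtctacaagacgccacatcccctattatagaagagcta
Gm28661: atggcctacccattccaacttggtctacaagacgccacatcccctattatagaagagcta

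Values are FPKM as deposited, fragment counts scaled to gene length and library size. They summed to 787332 to 869451 per library, and the steps between low values implied 17.3 to 19.2 M fragments (M, 1e6). Gapdh stood at 1091 and 1391 FPKM in the controls and at 17.0 to 23.8 FPKM in the 4 knockout libraries. The liver label held: Alb, the albumin gene of hepatocytes, stood at 31905 to 43650 FPKM. Markers of other cells were low, with summed levels of 52.5 to 74.8 FPKM for Kupffer cells, 77.9 to 99.7 for sinusoidal endothelium, 53.1 to 95.6 for stellate cells, 8.72 to 22.1 for cholangiocytes and 0.610 to 2.80 for lymphocytes. Red blood cell markers summed to 736 FPKM in knockout water replicate 1 and to 1094 to 1605 in the other libraries. The 13 mitochondrial mRNAs took 12.2% and 12.1% of all FPKM in the controls, 9.64% and 12.5% in the knockouts on water, and 11.9% and 8.82% in the knockouts on serine. Knockout water replicate 1 and knockout serine replicate 2 thus stood apart as the libraries with the smallest mitochondrial share. The sum of the hepatocyte markers, most of it Alb, was also lowest there, 48700 and 51770 FPKM against 56450 to 65320 in the other libraries. Alb, Apoa1 and Ttr were each lowest in these libraries, while Serpina1a, Cyp2e1 and Hnf4a were not lowest in both. Hnf4a stood at 152 and 150 FPKM there, above knockout water replicate 2 (129) and knockout serine replicate 1 (143). The part of this in the mitochondrial values was not tested. For all 37 genes, the share overlapped between knockout and control on water (exact permutation p = 1, adjusted p = 1 over 12 tests). It was lower in both knockouts on serine than in both controls, with a difference of group means of -1.79 percentage points (exact permutation p = 0.3333, adjusted p = 0.667). That difference was -0.239 points without knockout serine replicate 2 and -3.33 points without knockout serine replicate 1. In bulk liver, fewer cells of a type and less RNA per cell cannot be told apart.

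All 22 tRNAs were listed at 0 in all 6 libraries. They carry the amino acids to the mitochondrial ribosome and are 59 to 75 bases long. The shortest gene of any kind with a value above 0 had 192 bases, and 0 of the 6726 shorter genes in the table had one. A listed 0 at this length therefore says nothing of a tRNA's level, and no tRNA ratio, fold or position effect could be computed. The low values of single-exon genes were best read as whole fragments when 290 to 325 bases were taken off the gene length. That was more than the length of mt-Atp8 (204 bases), about that of mt-Nd4l (297 bases) and close to that of mt-Nd3 (348 bases). By this reading these shortest mRNAs have little or no effective length, and the bases taken off differed between libraries. Their levels against longer genes, their changes between groups and their shares of the mRNA pool below are uncertain for this reason.

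The rRNAs were listed far below the mRNAs. The small-subunit rRNA mt-Rnr1 stood at 372 and 362 FPKM in the controls, 354 and 439 in the knockouts on water, and 570 and 381 in the knockouts on serine. The large-subunit rRNA mt-Rnr2 stood at 287 and 245 FPKM in the controls, 148 and 182 in the knockouts on water, and 292 and 126 in the knockouts on serine. Both together took 0.0638% to 0.107% of all FPKM. How the libraries selected RNA is not given in the sources used here, so the rRNA values are not read as rRNA content. The ratio of mt-Rnr2 to mt-Rnr1 was 0.773 and 0.676 in the controls, 0.417 and 0.415 in the knockouts on water, and 0.512 and 0.330 in the knockouts on serine. Both knockout groups lay below both controls in this ratio (exact permutation test, two-sided, p = 0.3333 in each comparison, the smallest that 2 against 2 libraries can give, adjusted p = 0.667 over 12 tests). The ratio of rRNA to mRNA was 0.00661 and 0.00576 in the controls, 0.00661 and 0.00620 in the knockouts on water, and 0.00903 and 0.00724 in the knockouts on serine. It was higher in both serine libraries than in all others (exact permutation p = 0.3333, adjusted p = 0.667).

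Among complex I subunits, which form the proton-pumping membrane arm of the NADH dehydrogenase, mt-Nd1 and its neighbour mt-Nd2 lay on opposite sides of the controls. mt-Nd1 (MT, 2751 to 3707, plus strand) stood at 6261 and 6650 FPKM in the controls, 8046 and 9938 in the knockouts on water, and 10083 and 7806 in the knockouts on serine. All 4 knockout libraries lay above both controls. Over all genes tested, 34.4% were higher and 20.9% lower without overlap on water against control. On serine against control these shares were 41.5% and 15.5%. The share of all genes with all 4 knockout libraries beyond both controls was not computed, here or for the genes that follow. mt-Nd2 (3914 to 4951), the next mRNA on the same strand, stood at 7711 and 7657 FPKM in the controls, 4418 and 4994 in the knockouts on water, and 5060 and 3562 in the knockouts on serine. All 4 knockout libraries lay below both controls. The ratio of mt-Nd1 to mt-Nd2 was therefore 0.812 and 0.869 in the controls, 1.82 and 1.99 in the knockouts on water, and 1.99 and 2.19 in the knockouts on serine. This ratio was chosen after the values were seen and is given as a description. Neither gene had a nuclear copy listed above 0 among the sequence matches.

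mt-Nd4 (10167 to 11544) and mt-Nd4l (9877 to 10173), whose frames overlap by 7 bases, shared a pattern. mt-Nd4 stood at 7234 and 7400 FPKM in the controls, 4709 and 5662 in the knockouts on water, and 5489 and 3910 in the knockouts on serine. mt-Nd4l stood at 8377 and 7562 FPKM in the controls, 4969 and 6766 in the knockouts on water, and 6163 and 3948 in the knockouts on serine. For both genes all 4 knockout libraries lay below both controls, and their ratio stayed between 1.01 and 1.19 in the 6 libraries. mt-Nd5 (11742 to 13565), further along the same strand, did not follow. It stood at 3483 and 3158 FPKM in the controls, 3130 and 3474 in the knockouts on water, and 3712 and 2633 in the knockouts on serine, and its groups overlapped. The ratio of mt-Nd5 to mt-Nd4 was 0.482 and 0.427 in the controls against 0.614 to 0.676 in the 4 knockout libraries. This ratio, like that of mt-Nd4l to mt-Nd4, was not among the planned ones and is given as a description.

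mt-Nd3 (9459 to 9806) was the lowest mRNA listed. It stood at 1312 and 1762 FPKM in the controls, 864 and 1419 in the knockouts on water, and 892 and 673 in the knockouts on serine. Its level is bound up with its nuclear copy, described further on. mt-Nd6 (13552 to 14070), the single mRNA of the minus strand, stood at 2822 and 3174 FPKM in the controls, 2095 and 2795 in the knockouts on water, and 2373 and 2039 in the knockouts on serine. All 4 knockout libraries lay below both controls. Use of strand in counting is not given in the sources used here, so reads from mt-Nd6 and from plus-strand RNA across the same bases cannot be told apart. The ratio of mt-Nd6 to the 12 plus-strand mRNAs was 0.0292 and 0.0311 in the controls, 0.0284 and 0.0287 in the knockouts on water, and 0.0255 and 0.0300 in the knockouts on serine. On water the knockouts lay below the controls (exact permutation p = 0.3333, adjusted p = 0.667), and on serine the groups overlapped (p = 0.667, adjusted p = 1).

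mt-Cytb (14145 to 15288) encodes cytochrome b, the mitochondrially made subunit of complex III. It stood at 9705 and 10123 FPKM in the controls, 5192 and 6830 in the knockouts on water, and 6743 and 4460 in the knockouts on serine. All 4 knockout libraries lay below both controls. The cytochrome c oxidase core is encoded by mt-Co1, mt-Co2 and mt-Co3. mt-Co1 (5328 to 6872), the catalytic subunit, stood at 13849 and 14406 FPKM in the controls, 15324 and 16366 in the knockouts on water, and 16344 and 13488 in the knockouts on serine. On water both knockouts lay above both controls, and on serine the groups overlapped. mt-Co2 (7013 to 7696), which takes electrons from cytochrome c, stood at 14933 and 16318 FPKM in the controls, 11816 and 16882 in the knockouts on water, and 16468 and 11795 in the knockouts on serine. Its groups overlapped in all comparisons. mt-Co3 (8607 to 9390) stood at 6983 and 9872 FPKM in the controls, 3872 and 8707 in the knockouts on water, and 6283 and 3586 in the knockouts on serine. Relative to its mean, it had the largest spread between replicates among the 13 mRNAs in each group, with the coefficients of variation given beside its copy.

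mt-Atp6 and mt-Atp8 encode membrane subunits of the ATP synthase and are carried on one overlapping RNA. mt-Atp6 (7927 to 8607) stood at 9761 and 9659 FPKM in the controls, 6554 and 8939 in the knockouts on water, and 9668 and 6912 in the knockouts on serine. On water both knockouts lay below both controls. mt-Atp8 (7766 to 7969) stood at 7139 and 7564 FPKM in the controls, 4889 and 7292 in the knockouts on water, and 6124 and 5088 in the knockouts on serine. On serine both knockouts lay below both controls. The ratio of mt-Atp8 to mt-Atp6 was 0.633 to 0.816 over the 6 libraries, and control and knockout groups overlapped in it.

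**Figure D1:**
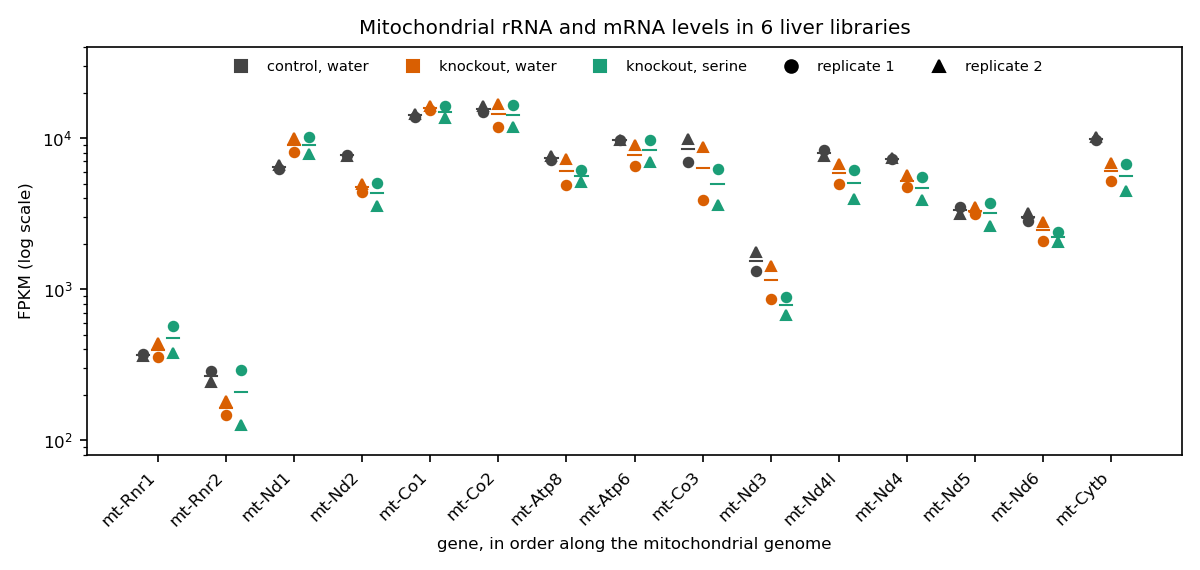
FPKM on a log axis of the 2 rRNAs and 13 mRNAs, in order along the genome, in 6 libraries (symbols, coloured by group) with group means (lines). mt-Nd1 lay higher, and mt-Nd2, mt-Nd4 and mt-Cytb lay lower, in all 4 knockout libraries than in both controls. The share of all genes with such a pattern was not computed.

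The Gapdh deletion was tested first, in mice on plain water. The 22 tRNAs, all at 0, could not be tested. No mitochondrial gene passed: limma called 0 of the 15 tested genes at a Benjamini-Hochberg adjusted p under 0.05, where 1.21% of all 11134 genes tested were called, 0.808% higher and 0.404% lower. At an unadjusted p under 0.05 there were 4 of 15, 3 lower and 1 higher, where 21.6% of all genes lay under it, 7.63% lower and 14% higher. Changes here are log2 fold changes of FPKM + 0.5. mt-Cytb had a log2 change of -0.73 (SE 0.24, limma adjusted p = 0.155) and mt-Nd2 one of -0.71 (SE 0.20, adjusted p = 0.120). mt-Nd4 had -0.50 (SE 0.20, adjusted p = 0.220) and mt-Nd1 had 0.47 (SE 0.19, adjusted p = 0.223). The other 11 lay between -0.69 for mt-Rnr2 and 0.17 for mt-Co1. The median of the 13 mRNAs was -0.34, with 11 of 13 negative, against a median of 0.08 and 41.0% negative over all genes.

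The libraries of knockout and control did not overlap for 9 of the 15 genes. mt-Nd1 and mt-Co1 were higher, where 34.4% of all genes were higher in this sense. mt-Rnr2, mt-Nd2, mt-Atp6, mt-Nd4l, mt-Nd4, mt-Nd6 and mt-Cytb were lower, where 20.9% of all genes were. The size of the median rested on 1 library. It was -0.10 without knockout water replicate 1 and -0.59 without knockout water replicate 2. Without replicate 1, mt-Co2 had a change of 0.11, mt-Co3 one of 0.07 and mt-Nd5 one of 0.07, all positive.

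The effect of serine was tested between the knockout groups. limma called 0 of the 15 mitochondrial genes and 0% of all genes. At an unadjusted p under 0.05 there were 0 of 15, and 7.23% of all genes, 2.04% lower and 5.19% higher. The groups overlapped for all 15, where 26.9% of all genes were higher and 10.9% lower without overlap. The changes ran from -0.51 for mt-Nd3 (SE 0.28, limma adjusted p = 0.739) to 0.24 for mt-Rnr1 (SE 0.21, adjusted p = 0.821), and the median of the 13 mRNAs was -0.12 against 0.08 over all genes. The precision was limited: the 95% interval ran from -0.47 to 0.45 for mt-Nd1 and from -0.70 to 0.46 for mt-Cytb. The median turned positive without knockout water replicate 2 (0.07) or without knockout serine replicate 2 (0.11).

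Knockouts on serine were also set against the controls. That comparison shares the controls with the first and the serine libraries with the second. limma called 0 of the 15 genes, where 1.18% of all genes were called, 0.853% higher and 0.323% lower. At an unadjusted p under 0.05 there were 5 of 15, all lower, where 25.7% of all genes lay under it, 5.95% lower and 19.8% higher. These were mt-Nd3 (log2 change -0.97, SE 0.28, limma adjusted p = 0.103), mt-Nd2 (-0.86, SE 0.20, adjusted p = 0.0715), mt-Cytb (-0.85, SE 0.24, adjusted p = 0.0980), mt-Nd4l (-0.69, SE 0.26, adjusted p = 0.161) and mt-Nd4 (-0.66, SE 0.20, adjusted p = 0.114). Without knockout serine replicate 2, mt-Nd4l stood at -0.37, mt-Nd4 at -0.41 and mt-Cytb at -0.56, and without knockout serine replicate 1 at -1.01, -0.90 and -1.15. mt-Nd1 had a change of 0.46 (SE 0.19, adjusted p = 0.195), which was 0.27 without knockout serine replicate 1, and mt-Nd5 one of -0.09 (SE 0.19, adjusted p = 0.815). The median of the 13 mRNAs was -0.44, against 0.16 over all genes. mt-Rnr1 and mt-Nd1 were higher without overlap, where 41.5% of all genes were. mt-Nd2, mt-Atp8, mt-Co3, mt-Nd3, mt-Nd4l, mt-Nd4, mt-Nd6 and mt-Cytb were lower, where 15.5% of all genes were.

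**Figure D2:**
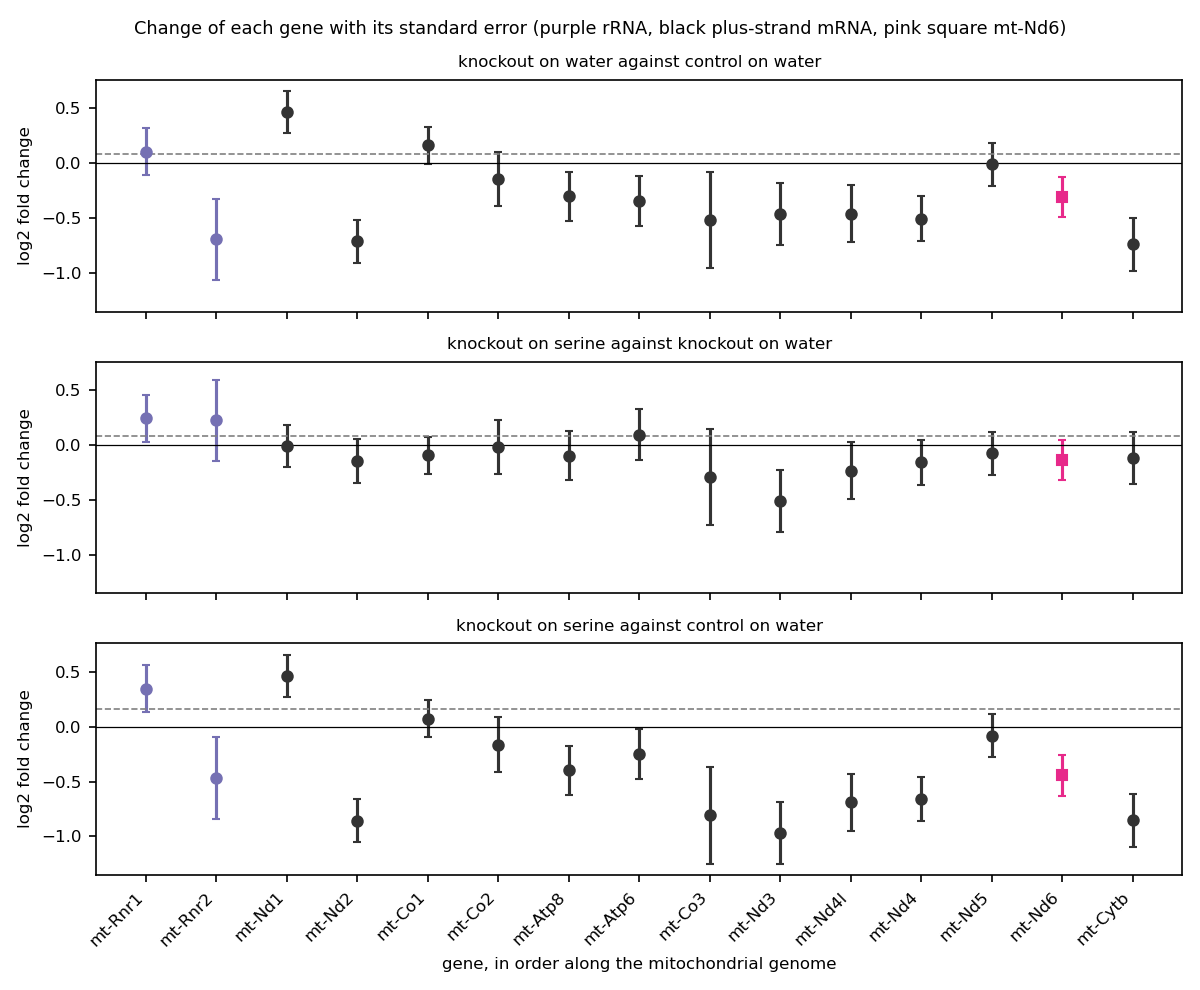
Log2 fold change of FPKM + 0.5 (points) with its standard error (bars) for each gene in order along the genome, in the 3 comparisons; the dashed line is the median of all genes. mt-Nd1 stands at 0.47 and 0.46 and its neighbour mt-Nd2 at -0.71 and -0.86 in the comparisons with control, and serine against water lies between -0.51 and 0.24.

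Position along the genome did not order the changes closely. Over the 12 plus-strand mRNAs, the Spearman correlation of position with log2 change was -0.44 for knockout on water, -0.39 for serine against water and -0.36 for knockout on serine against control. These are descriptions over 12 genes that share the same libraries. Neighbours on the plus strand could differ in sign, as did mt-Nd1 and mt-Nd2 against control. Levels also leaned to the start of the plus strand, with a correlation of position and FPKM of -0.18 and -0.23 in the controls and of -0.43 to -0.55 in the 4 knockout libraries. All these correlations use values as listed and were not computed with nuclear copies added. They include mt-Atp8, mt-Nd3 and mt-Nd4l, whose levels are uncertain for their length.

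Each mRNA was then expressed as a share of the 13, which removes the difference in mitochondrial share between libraries. mt-Nd1 made up 6.29% and 6.32% of the pool in the controls, 10.6% and 9.93% in the water-drinking knockouts, and 10.6% and 11.2% in the serine-drinking ones. mt-Co1 made up 13.9% and 13.7% in the controls, 20.2% and 16.4% in the water-drinking knockouts, and 17.1% and 19.3% in the serine-drinking ones. Both took a larger part in all knockout libraries, those with the smallest mitochondrial share included. mt-Cytb made up 9.75% and 9.61% in the controls, 6.84% and 6.83% in the water-drinking knockouts, and 7.07% and 6.38% in the serine-drinking ones. mt-Nd2 made up 7.74% and 7.27% in the controls against 4.99% to 5.82% in the 4 knockout libraries, and mt-Nd4 7.27% and 7.03% against 5.59% to 6.21%. These took a smaller part in every knockout library.

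Of the 13 shares, 3 were higher and 6 lower without overlap in the knockouts on water against control. For the knockouts on serine against control, 5 were higher and 6 lower. Divided by the same sum, 46.2% of all genes were higher and 9.64% lower on water, and 59.4% higher and 5.7% lower on serine. Between serine and water in the knockouts, 2 shares were higher and 2 lower, where 18.7% of all genes were higher and 4.43% lower. With nuclear copies added to the pool, 4 shares were higher and 6 lower in each comparison with control, and the shares of all genes were not computed. On serine against control, mt-Atp6 then turned from higher (10.1% and 9.89% against 9.80% and 9.17%) to lower (12.6% and 12.3% against 13.2% and 13.1%). mt-Co3 turned from lower to overlapping there. Shares of one pool add to a fixed total, so a larger part for one mRNA means a smaller part for others. Other genes are not bound to that total. The sum they were divided by was 75878 and 69900 FPKM in knockout water replicate 1 and knockout serine replicate 2, against 95402 to 105303 in the other libraries. A low divisor raises these genes together, so their percentages are not a like measure for the 13 shares. With all libraries scaled to equal mRNA sums, an alternative chosen after seeing the data, limma called mt-Nd1 in the knockouts on serine (log2 change 0.79, adjusted p = 0.0369, 2.93% of all genes called) and not in those on water (0.70, adjusted p = 0.0678, 1.6% called). For serine against water it called 0 of the 15, and 0.0447% of all genes. For serine against water the change on this scale was 0.08225 (adjusted p = 0.9975). The share of mt-Nd1 overlapped between serine and water as listed. With nuclear copies added to the pool it was higher on serine without overlap, at 9.14% and 9.55% against 8.748% and 8.754%, as was the ratio of mt-Nd1 to mt-Nd2. mt-Nd2 had a change of -0.48 on water (adjusted p = 0.254) and -0.53 on serine (adjusted p = 0.118) on this scale.

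**Figure D3:**
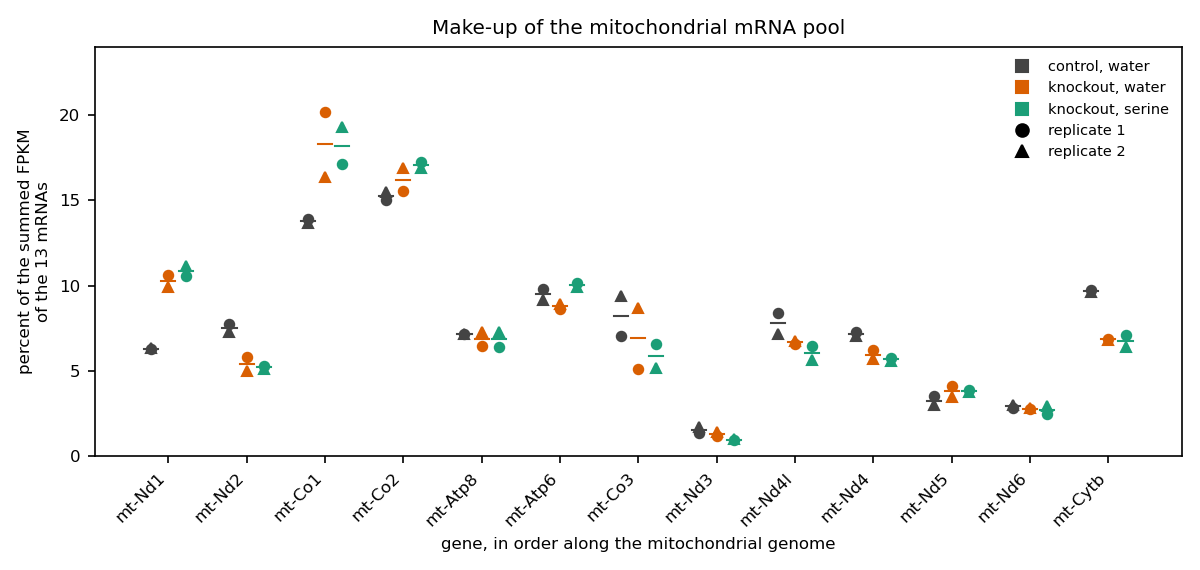
Percent of the summed FPKM of the 13 mRNAs taken by each mRNA in 6 libraries (symbols) with group means (lines), in order along the genome. mt-Nd1 lies at 6.29% and 6.32% in the controls and at 9.93% to 11.2% in the knockout libraries, and mt-Cytb at 9.61% and 9.75% against 6.38% to 7.07%.

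Nuclear copies with a mean FPKM of 1 or more matched 5 of these mRNAs. By sequence, 17 genes outside the mitochondrial chromosome matched it over 100 bases or more at 90% identity or more, and 5 of them had a mean FPKM of 1 or more, all in the cluster on chromosome 1. The other 12 had mean values of at most 0.215 FPKM. Gm28439 and Gm10222 of the same cluster, identical over 876 bases of mt-Nd4 and 294 bases of mt-Nd4l, were listed at 0. Reads of mt-Nd4 and mt-Nd4l can thus fit both places as well, whatever was listed under the copies. How reads that fit both places were assigned is not given in the sources used here, and its part in these values was not tested.

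mt-Co3 varied more between replicates alone than together with its identical copy Gm28437 (24652270 to 24653052). Gm28437 was listed at 5966 and 3357 FPKM in the controls, 5536 and 3525 in the knockouts on water, and 5972 and 4809 in the knockouts on serine. Among the controls and among the water-drinking knockouts, the library with more under the copy had less under mt-Co3, while in the serine-drinking knockouts both were lower in replicate 2. The sum of both was 12949 and 13228 FPKM in the controls, 9408 and 12231 in the knockouts on water, and 12254 and 8394 in the knockouts on serine. The coefficient of variation between the controls was 24.2% for mt-Co3 alone and 1.51% for the sum. It was 54.4% and 18.5% for the water-drinking knockouts, and 38.7% and 26.4% for the serine-drinking ones. With copies added, mt-Co3 made up 10.2% to 11.2% of the pool in all 6 libraries, against 5.10% to 9.38% as listed.

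For mt-Nd3 most of the signal was listed under the copy. Gm28438 was listed at 4760 and 5088 FPKM in the controls, 3553 and 4416 in the knockouts on water, and 4461 and 2902 in the knockouts on serine. That was 74.3% to 83.3% of the sum. The level listed under mt-Nd3 is thus a small part of what is listed under both. Gm10925 (24653055 to 24653732), identical to mt-Atp6 over 678 bases, held 30.4% to 46.3% of the sum of that pair. Gm28661, identical to mt-Co2, was listed at 0.360 and 25.6 FPKM in the controls, 1362 and 0.0700 in the knockouts on water, and 266 and 958 in the knockouts on serine. It held 10.3% of the pair's sum in knockout water replicate 1 and 7.51% in knockout serine replicate 2, the libraries with the smallest mitochondrial share. Gm29216 was listed at 4438 to 6376 FPKM beside mt-Co1, and since their lengths differ no sum was made.

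Adding the copies, an alternative chosen after seeing the data, left the count of called mitochondrial genes at 0 in all 3 comparisons. In the knockouts on water, the log2 change moved from -0.52 to -0.29 for mt-Co3, from -0.46 to -0.35 for mt-Nd3, from -0.34 to -0.22 for mt-Atp6 and from -0.14 to -0.0668 for mt-Co2. In the knockouts on serine it moved from -0.81 to -0.37 for mt-Co3 and from -0.97 to -0.56 for mt-Nd3 (limma adjusted p = 0.204). The change of mt-Atp6 there became larger, from -0.25 to -0.39. For serine against water, mt-Atp6 went from 0.09 to -0.17. mt-Nd1, mt-Nd2, mt-Nd5, mt-Nd6, mt-Cytb and the rRNAs had no copy with a mean FPKM of 1 or more, and their values are as listed.

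**Figure D4:**
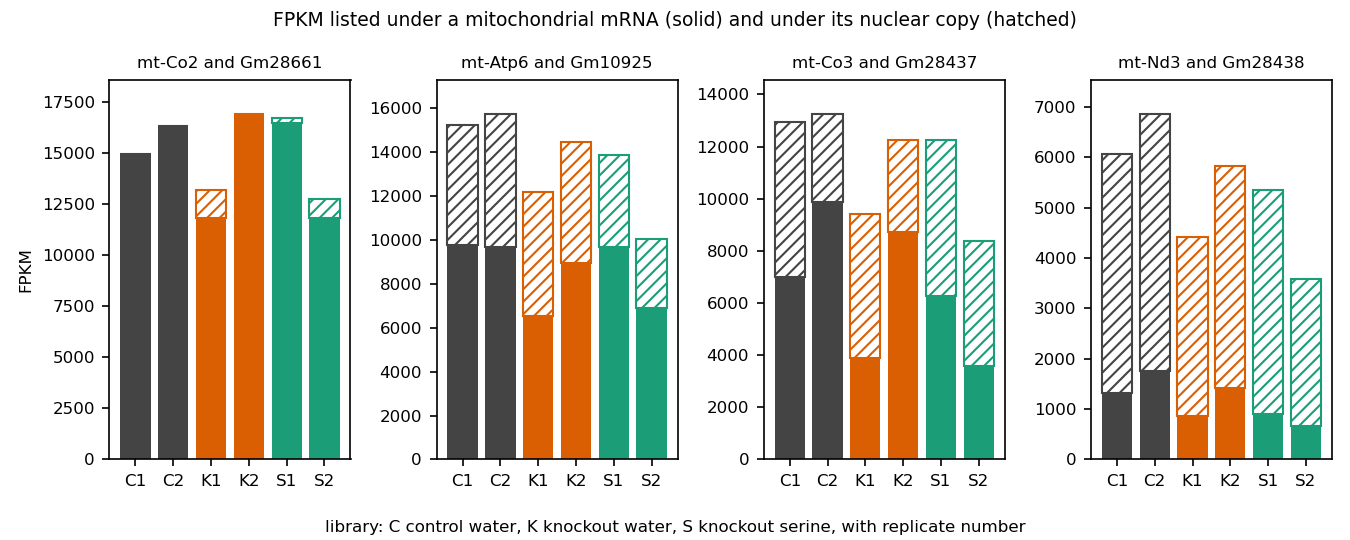
FPKM listed under 4 mitochondrial mRNAs (solid) and under their chromosome 1 copies (hatched, stacked on top) in each library. For mt-Co3 and Gm28437 the control sums are 12949 and 13228 FPKM although the solid parts are 6983 and 9872.

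The respiratory subunits encoded in the nucleus were set beside the mitochondrial ones, complex by complex. Of 78 nuclear subunit genes, limma called 0 in the water-drinking knockouts and 5, all higher, in the serine-drinking ones, against control. Over all genes tested, 1.21% were called on water and 0.853% were called higher on serine. For serine against water in the knockouts, limma called 0 of the 78 and 0% of all genes. The median of the 78 there was 0.10, against 0.08 over all genes. On water 68 of 78 had a positive change, with a median of 0.30, against a median of 0.08 and 41% negative over all genes. In complex I the 36 nuclear genes had a median of 0.26 on water, and the 7 mitochondrial mRNAs ran from -0.71 to 0.47. In complex III the 9 nuclear genes had a median of 0.45 and mt-Cytb stood at -0.73. In complex IV the 12 nuclear genes had a median of 0.29, and mt-Co1, mt-Co2 and mt-Co3 stood at 0.17, -0.14 and -0.52. In complex V the 17 nuclear genes had a median of 0.31, and mt-Atp8 and mt-Atp6 stood at -0.30 and -0.34. Complex II has nuclear subunits only, and its 4 genes had a median of 0.49.

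The nuclear genes with the smallest p on water included Ndufa8, Ndufc2 and Ndufa12 of complex I (log2 changes 0.74, 0.76 and 0.51) and Sdhb, Sdhd and Sdha of complex II (0.59, 0.55 and 0.43). For complex III they were Uqcrc1, Cyc1 and Uqcrb (0.67, 0.57 and 0.52), for complex IV Cox7a2l, Cox5b and Cox5a (0.69, 0.56 and 0.48), and for complex V Atp5g1, Atp5g3 and Atp5a1 (0.74, 0.58 and 0.52). Their limma adjusted p lay between 0.0503 for Atp5g1 and 0.119 for Sdha. In the knockouts on serine, Ndufa8 (0.84, limma adjusted p = 0.0454), Ndufb10 (0.75, adjusted p = 0.0486), Ndufc2 (1.01, adjusted p = 0.0454), Uqcrc1 (0.81, adjusted p = 0.0485) and Atp5g1 (0.96, adjusted p = 0.0370) rose against control. On water Ndufb10 had a change of 0.44 against control (limma adjusted p = 0.115). For serine against water, Ndufa8 had a change of 0.10, Uqcrc1 0.14, Ndufc2 0.25 and Ndufb10 0.31 (limma adjusted p of 0.678 to 0.873). Atp5g1, which encodes the ring subunit of the ATP synthase, went from 407 and 378 FPKM in the controls to 738 and 788 in the knockouts on serine. With median-of-ratios scaling the limma adjusted p of the 5 genes was 0.0595 to 0.0848, so that all calls ended. They also ended with no filter (0.111 for each), with no variance trend (0.0729 to 0.0887), with the 4 compared libraries alone (0.102 to 0.106), and without control water replicate 1 (0.2405 for each), control water replicate 2 (0.165 to 0.184), knockout water replicate 1 (0.102 to 0.106), knockout water replicate 2 (0.0998 to 0.106) or knockout serine replicate 2 (0.132 to 0.168). Without knockout serine replicate 1, Ndufa8 (0.0508) and Ndufb10 (0.0567) lost their calls. Other settings called more of the 78 on serine, 15 with a filter at mean FPKM 5 and 15 with TPM scaling. Scaling to the nuclear sum called 13 there, and pseudocount 0.1, pseudocount 1 and added nuclear copies called 6 each. On water, TPM scaling and scaling to the nuclear sum called 4 each, and the filter at mean FPKM 5 called 2. Pseudocount 0.1, pseudocount 1 and added nuclear copies called 1 each on water.

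**Figure D5:**
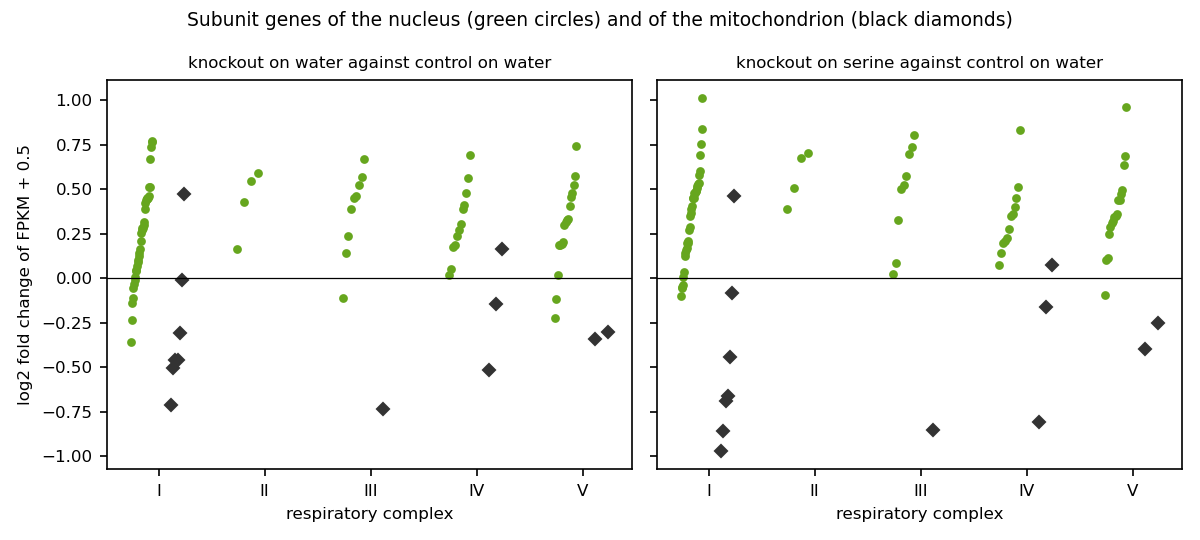
Log2 fold changes of FPKM + 0.5 for nuclear (green circles) and mitochondrial (black diamonds) subunit genes by respiratory complex, for both knockout groups against control. In complex III mt-Cytb stands at -0.73 and -0.85 while the medians of the 9 nuclear genes are 0.45 and 0.52.

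Of the nuclear genes that serve mitochondrial RNA, limma called none in the 3 comparisons, where 1.21%, 0% and 1.18% of all genes were called. The median change of all genes on water was 0.08. For transcription and replication of mitochondrial DNA, 0 of 17 passed, with a median of -0.05 on water. Among them Tfam, the packaging and transcription factor of mitochondrial DNA, had a change of 0.29, Mterf4, of the termination factor family, one of 0.45 (adjusted p = 0.182), and Polg2, the accessory subunit of the DNA polymerase, one of -0.56 (adjusted p = 0.208). For processing and turnover of mitochondrial RNA, 0 of 33 passed, with a median of 0.13. Tbrg4 (0.67) and Grsf1 (0.62), RNA-binding proteins of mitochondria, and Qrsl1, which helps charge a mitochondrial tRNA (1.18, adjusted p = 0.128), had the smallest p. For the aminoacyl-tRNA synthetases that charge mitochondrial tRNAs, 0 of 18 passed, with a median of 0.12, and Gars (0.72), Cars2 (-0.34) and Nars2 (0.30) had the smallest p. On serine against control the medians of these 3 lists were 0.30, 0.24 and 0.27, beside 0.16 over all genes.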

How the data were processed

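The authors deposited FPKM values per gene for 6 liver libraries. Per the submitters' processing notes, reads were called with bcl2fastq and aligned with HISAT2 2.0.5 to GRCm39. How FPKM were computed, with which annotation, and how strand and multiply mapped reads were handled, is not given in the sources used here. Per the labels' protocols, RNA was extracted with Trizol. The gene length column deposited by the authors gave lengths in bases (other unit). Another deposited table held 295 unannotated transcripts, 0 of them on the mitochondrial chromosome.

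The 11134 genes whose FPKM averaged at least 1 were tested. limma 3.58.1 (R 4.3.3, eBayes with trend) fitted 3 group means to log2(FPKM + 0.5) over the 6 libraries, with 3 residual and 3.46 prior degrees of freedom. Two-sided p-values were adjusted after Benjamini-Hochberg across all tested genes, with a threshold of 0.05. The script was tested on simulated data. Ratios of summed FPKM were compared with exact permutation tests over libraries. Nuclear copies were found with blastn 2.17.0 among GENCODE vM21 transcripts (100 bases, 90% identity). Fragments per library came from the steps between low values of genes without introns, where 86.9% to 90.7% were whole multiples within 0.03 beyond rounding, and chance gives 22.1% to 22.9%. The bases taken off and the step were chosen in each library for the largest excess over chance. The chance share holds for a single fixed setting and is not corrected for that search.

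The members, lists, ratios and tests were chosen with earlier results of these data known. All 37 mitochondrial genes were accounted for. Nuclear genes were named by the 3 smallest p per list on water, and where they were called on serine. Alternatives were other pseudocounts, filters, scalings and fits, a replicate block and leaving out each library. FPKM are not counts, so no count model was fitted.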

Additional observations from a re-analysis of the deposited data

How the results depend on the processing

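The count of called mitochondrial genes stayed at 0 in every comparison and alternative run, except for mt-Nd1 in knockouts on serine against control with scaling to the sum of the 13 mRNAs, where it was 1. The count of all genes called moved more. For the knockouts on water against control it was 2 with no filter, 228 with TPM scaling, 237 with scaling to the nuclear sum, 16 with no variance trend, 210 with the 4 compared libraries and 7 to 215 with single libraries left out. For the knockouts on serine against control it was 3 with no filter, 450 with a filter at mean FPKM 5, 35 with median-of-ratios scaling, 411 with TPM scaling, 400 with nuclear-sum scaling, 8 with no variance trend, 4 with the 4 compared libraries, 328 with scaling to the 13 mRNAs and 4 to 203 with single libraries left out. For serine against water it was 5 with scaling to the 13 mRNAs and 0 to 6 with single libraries left out. Without knockout water replicate 1 and knockout serine replicate 2 together it was 0 in both comparisons with control. Same-numbered replicates did not deviate together (correlations 0.0281, 0.0387 and -0.197 over 11134 genes). With 2 libraries a group, this cannot show whether they share more than a number. With the replicate block, 4 genes were called on water and 4 on serine against control, and the 5 nuclear subunit genes called on serine had adjusted p of 0.0897 to 0.102. Where not shown otherwise, the cause was not tested.

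The median of the 13 mRNAs on water against control ran from -0.59 to -0.10 with single libraries left out and was -0.10 without both low libraries. On serine against control it was -0.12 with scaling to the 13 mRNAs. Some uncalled log2 changes turned sign, near 0 and further from it. Examples of the latter are mt-Co3 on water (-0.52) and mt-Rnr2 on serine (-0.47), both against control. Others on water against control kept theirs with single libraries left out: mt-Nd1 ran from 0.32 to 0.62, mt-Nd2 from -0.80 to -0.62, mt-Nd3 from -0.82 to -0.10, mt-Nd4l from -0.68 to -0.23, mt-Nd4 from -0.64 to -0.37 and mt-Cytb from -0.93 to -0.54. On water against control, mt-Nd5 was 0.0785 with TPM scaling, 0.0610 with nuclear-sum scaling and 0.22 with scaling to the 13 mRNAs, and mt-Co2 was 0.0885 with the last. With single libraries left out, mt-Rnr1 ran from -0.0500 to 0.26, mt-Co2 from -0.40 to 0.11, mt-Co3 from -1.10 to 0.0686 and mt-Nd5 from -0.0833 to 0.0670. Without both low libraries mt-Co2 was 0.11, mt-Co3 0.0686 and mt-Nd5 0.0670.

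On serine against water, scaling to the 13 mRNAs gave 0.0823 for mt-Nd1, 0.0006019 for mt-Co1, 0.0744 for mt-Co2 and 0.0167 for mt-Nd5, and adding nuclear copies gave -0.17 for mt-Atp6. With single libraries left out, the ranges were -0.0502 to 0.53 for mt-Rnr1, -0.38 to 0.83 for mt-Rnr2, -0.20 to 0.17 for mt-Nd1, -0.40 to 0.11 for mt-Nd2, -0.23 to 0.0455 for mt-Co1, -0.28 to 0.24 for mt-Co2, -0.39 to 0.19 for mt-Atp8, -0.15 to 0.34 for mt-Atp6, -0.88 to 0.29 for mt-Co3, -0.55 to 0.0879 for mt-Nd4l, -0.40 to 0.0882 for mt-Nd4, -0.32 to 0.17 for mt-Nd5, -0.35 to 0.0698 for mt-Nd6 and -0.42 to 0.18 for mt-Cytb. Without both low libraries mt-Nd1 was 0.0209, mt-Nd2 0.0189 and mt-Nd5 0.0956.

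On serine against control, mt-Co1 was -0.11 with median-of-ratios scaling, and scaling to the 13 mRNAs gave 0.16 for mt-Co2, 0.0782 for mt-Atp6 and 0.24 for mt-Nd5. With single libraries left out, mt-Co1 ran from -0.0665 to 0.21, mt-Rnr2 from -1.07 to 0.14, mt-Co2 from -0.40 to 0.0772 and mt-Nd5 from -0.33 to 0.16. Without a turn of sign, mt-Nd1 ran from 0.27 to 0.64, mt-Nd2 from -1.11 to -0.60, mt-Nd3 from -1.18 to -0.76, mt-Nd4l from -1.01 to -0.37, mt-Nd4 from -0.90 to -0.41 and mt-Cytb from -1.15 to -0.56. Without both low libraries mt-Rnr2 was 0.14, mt-Co2 0.0772 and mt-Nd5 0.16.

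Among single values over the mitochondrial genes, the difference in mitochondrial share ran from -2.52 to 0.352 points on water against control, from -2.25 to 0.8435 on serine against water and from -3.33 to -0.239 on serine against control with single libraries left out. The rRNA to mRNA difference on water was -0.0005402 with FPKM multiplied by gene length, and ran from -0.0002079 to 0.0006471 with single libraries left out. On serine against water the mt-Nd6 ratio difference ran from -0.003061 to 0.001479 and that of mt-Rnr2 to mt-Rnr1 from -0.08599 to 0.09608.

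The 3 alternatives that scale to the 13 mRNAs, add nuclear copies or leave out both low libraries were chosen after seeing the data. No ratio of tRNA to mRNA was computed, since all tRNAs were listed at 0. With 2 pools a group, exact permutation cannot go below 0.3333.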
